A study of Homo sapiens with 24 samples.

Results

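The paraspeckle genes described here are 2 nuclear long noncoding RNAs, NEAT1 and MALAT1, and the mRNAs of 5 RNA-binding proteins, SFPQ, NONO, PSPC1, TARDBP and RBM14. They were chosen by name, as the architectural RNA of the paraspeckle, its neighbour in the genome that marks nuclear speckles, and proteins that assemble on NEAT1. All 7 were found among the 60236 Ensembl genes of the deposited table, and all 7 had enough counts to be tested in each of 12 comparisons. The study asked how overexpression of snaR-A, a small cancer-associated noncoding RNA made by RNA polymerase III, or of SF3B2, a protein of the U2 snRNP, changes the mRNAs of HEK293T and A549 cells. HEK293T is a human embryonic kidney line that carries the SV40 large T antigen, and A549 is a human lung adenocarcinoma line. Cells of each line received, by lipid transfection, a plasmid for snaR-A or for a scrambled sequence (scramble), both with a U6 promoter, or a plasmid for SF3B2 or eGFP, and RNA was taken 48 h later. Each of the 8 groups had 3 biological replicates, for 24 libraries of poly(A)-selected, rRNA-depleted RNA. The expression was transient, and no untransfected cells are among the groups, so scramble served as the control of snaR-A and eGFP as that of SF3B2.

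The libraries held between 195185935 and 260878271 counts, and levels are given as CPM, counts scaled to a common library total with TMM over the 24 libraries. SF3B2 lay between 24055 and 48888 CPM in the 6 libraries of its plasmid and between 293 and 372 CPM in 17 of the other 18. The exception was the library labelled A549 scramble replicate 3, with SF3B2 at 8773 CPM. Main results for members and gene lists in A549 are therefore also given without it. All 7 A549 markers and 5 of 6 HEK293T markers were higher in every library of their own line than in any of the other line, IGF2BP1 being the exception. The library labelled HEK293T eGFP replicate 3 held the 7 A549 markers at a summed 712 CPM, against 7.80 to 25.9 CPM in the other 11 HEK293T libraries and at least 19357 CPM in A549. Main results that rest on that library are also given without it. For the third snaR-A library of A549, the title and treatment name A549 while the tissue and cell line labels name kidney and HEK293T, and its markers were those of A549.

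Paraspeckles are nuclear bodies that form around the long isoform of NEAT1. SFPQ, NONO and PSPC1 belong to the DBHS family (Drosophila behaviour/human splicing), whose members pair with one another through their RNA-binding regions, and SFPQ and NONO are needed to keep the long isoform stable. RBM14 helps to hold the bodies together, while TARDBP, which encodes TDP-43, favours the short, polyadenylated isoform. MALAT1, transcribed just downstream of NEAT1, gathers in nuclear speckles, where splicing factors are stored. The bodies act as a store of proteins and RNAs, and NEAT1 is known to be induced by p53, hypoxia, interferon and heat shock.

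The 3′ ends of the 2 noncoding RNAs are shown because the libraries were poly(A)-selected and the ends differ in the polyadenylation signal. Their part in the levels given here was not tested. On hg38, NEAT1 (ENSG00000245532) spans chr11:65422774-65445540 on the plus strand and MALAT1 (ENSG00000251562) chr11:65497640-65508073, also on the plus strand. GENCODE 44 lists 9 NEAT1 transcripts, of which 8 are at most 3524 bases long and 1 is the 22743-base long isoform. The last 100 bases of the short isoform (chr11:65426414-65426513) hold the polyadenylation signal, in capitals, 5 bases from the annotated end. The last 100 bases of the long isoform (chr11:65445441-65445540) and of MALAT1 before the tRNA-like mascRNA (chr11:65506017-65506116) hold no AATAAA. They share a run of 16 bases and the last 11 bases, both in capitals, and the 16-base run is not in the window of the short isoform.
NEAT1 short isoform: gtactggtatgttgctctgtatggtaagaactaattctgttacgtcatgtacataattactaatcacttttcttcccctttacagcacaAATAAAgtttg
NEAT1 long isoform: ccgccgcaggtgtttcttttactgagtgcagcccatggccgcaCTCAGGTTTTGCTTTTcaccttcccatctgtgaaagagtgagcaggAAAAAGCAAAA
MALAT1: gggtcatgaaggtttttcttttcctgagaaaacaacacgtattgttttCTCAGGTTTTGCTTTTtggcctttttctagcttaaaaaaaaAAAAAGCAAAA
The ends of the long isoform and of MALAT1 are known to be cut by RNase P and to fold into a triple helix in place of a poly(A) tail. The deposited values are sums per gene, so the isoforms of NEAT1 cannot be told apart in them, and a level of NEAT1 or MALAT1 here is a level in poly(A)-selected RNA.

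NEAT1 was the member that differed most between the lines. In HEK293T it was at 24.7, 16.04 and 29.8 CPM with scramble, at 19.4, 22.3 and 25.5 CPM with snaR-A, at 26.1, 17.7 and 41.0 CPM with eGFP, and at 26.3, 11.7 and 24.7 CPM with SF3B2. In A549 it was at 354, 332 and 507 CPM with scramble, at 375, 362 and 376 CPM with snaR-A, at 500, 376 and 341 CPM with eGFP, and at 365, 421 and 371 CPM with SF3B2. Every A549 library was above every HEK293T library, and within each line the 4 plasmids overlapped. The difference over the 4 plasmids was 4.04 ± 0.16 (SE) on the log2 scale (edgeR adjusted p = 3.6e-15). The highest HEK293T library, at 41.0 CPM, was the one that carried A549 markers, and without it the difference was 4.14 ± 0.16. Per kilobase of the long isoform, the median NEAT1 level was 1.09 CPM in HEK293T and 16.4 CPM in A549, and per kilobase of the 3524-base transcript it was 7.02 and 106 CPM, so the level per length depends on which isoform the reads came from.

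MALAT1 was near the limit of detection in the deposited table. It had 0, 24 and 7 counts in the HEK293T scramble libraries, 0, 39 and 26 with snaR-A, 63, 134 and 27 with eGFP, and 17, 239 and 11 with SF3B2. In A549 it had 254, 119 and 57 counts with scramble, 177, 188 and 185 with snaR-A, 61, 108 and 3462 with eGFP, and 193, 50 and 354 with SF3B2. The 3462 counts of A549 eGFP replicate 3, 18.7 CPM, stood apart from the other 11 A549 libraries, which lay at 0.247 to 1.94 CPM. A count of 0 allows up to 3 counts, 0.0119 CPM in HEK293T scramble replicate 1 and 0.0120 CPM in snaR-A replicate 1. The median was 0.0907 CPM in HEK293T and 0.821 CPM in A549. Over the 4 plasmids MALAT1 was higher in A549 by 3.43 ± 0.74 on the log2 scale (edgeR adjusted p = 0.000269), and between 2.42 and 4.16 when each of the 24 libraries was left out.

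How reads were assigned may bear on the MALAT1 level, as may the poly(A) selection, and neither was tested. Of the 60236 IDs, 5333 had no symbol in the gene tables used, and these IDs held 2.35 to 2.61% of the counts. HNRNPR, an abundant nuclear RNA-binding protein, was listed at a mean of 1.26 CPM, while the highest ID with no symbol, ENSG00000288299, had a mean of 1952 CPM. A low level under MALAT1's ID therefore cannot be told apart from reads counted under another ID. The smaller genes that overlap NEAT1 or MALAT1 on the same strand and were in the table held at most 2 counts in any library. Of the 31-base words of their annotated transcripts, 3.54% for NEAT1 and 1.91% for MALAT1 occur in another gene.

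**Figure D1:**
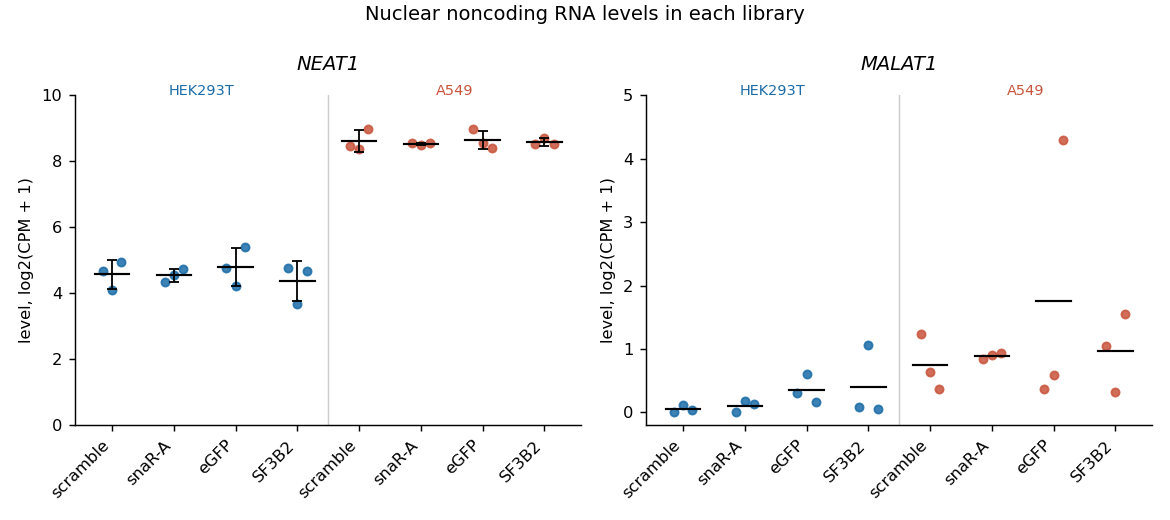
NEAT1 (left) and MALAT1 (right) in each library, as log2(CPM + 1) on the vertical axis, for the 4 plasmids in HEK293T (blue) and A549 (red). Each point is a library, horizontal lines are means of 3 libraries, and bars on NEAT1 are ± 1 SD (none are drawn for MALAT1). All 12 A549 libraries lie above the HEK293T libraries for NEAT1, and 1 A549 eGFP library, at 18.7 CPM, stands above all others for MALAT1.

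The mRNAs of the 5 proteins differed less between the lines than the noncoding RNAs did. Median levels in HEK293T and A549 were 578 and 442 CPM for SFPQ, 713 and 655 CPM for NONO, 71.2 and 58.1 CPM for PSPC1, 266 and 297 CPM for TARDBP, and 50.03 and 65.3 CPM for RBM14. Per kilobase of the canonical transcript, the order in both lines was NONO, SFPQ, TARDBP, PSPC1 and RBM14, from 268 to 9.32 CPM in HEK293T and from 246 to 12.2 CPM in A549. Per kilobase of all exons merged, SFPQ was above NONO in HEK293T, at 74.8 against 63.5 CPM, so the order of these 2 depends on the length used, and RBM14 was the lowest by both lengths. Of the 7 members, 6 differed between the lines at an adjusted p under 0.05, the threshold used for every call here, beside 85.8% of all 25923 genes tested, and 4 were higher in A549 and 2 lower, beside 42.8% and 43% of all genes. SFPQ was lower in A549 by a log2 difference of -0.30 ± 0.05 (edgeR adjusted p = 2.74e-05) and PSPC1 by -0.23 ± 0.03 (edgeR adjusted p = 1.67e-06), while NONO, at -0.05 ± 0.11, was not called. These are means over the 4 plasmids. With scramble alone the order under TMM scaling was the other way. For SFPQ every A549 scramble library was above every HEK293T scramble library (435 to 562 against 366 to 398 CPM). The same held for PSPC1 (57.8 to 64.4 against 50.4 to 54.3 CPM). By library size alone the scramble groups of SFPQ overlapped (381 to 451 against 414 to 462 CPM). For PSPC1 every A549 library was then below every HEK293T library, with scramble at 49.4 to 51.6 against 58.6 to 61.5 CPM. RBM14 was higher in A549 by 0.42 ± 0.05 under TMM scaling (edgeR adjusted p = 2.89e-07), but by library size alone its value was -0.04 and not called. TARDBP was higher by 0.14 ± 0.02 under TMM scaling (edgeR adjusted p = 2.67e-05) and lower by library size alone, at -0.32 (edgeR adjusted p = 1.37e-12). The choice of scaling moved the median of all genes between the lines by -0.46 on the log2 scale and the calls from 11093 higher and 11143 lower to 7621 higher and 15048 lower. TARDBP and RBM14 thus had no direction between the lines that held under both scalings. SFPQ and PSPC1 had none that held for every plasmid under TMM scaling.

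In HEK293T, SFPQ, PSPC1 and RBM14 were higher with snaR-A than with scramble. SFPQ was at 381, 366 and 398 CPM with scramble and at 505, 563 and 557 CPM with snaR-A. PSPC1 was at 51.6, 54.3 and 50.4 CPM with scramble and at 67.5, 72.1 and 70.2 CPM with snaR-A, and RBM14 at 39.0, 39.4 and 39.1 CPM with scramble and at 49.3, 56.6 and 53.8 CPM with snaR-A. For each of these genes every snaR-A library was above every scramble library. The log2 fold changes were 0.51 ± 0.06 for SFPQ, 0.43 ± 0.04 for PSPC1 and 0.45 ± 0.05 for RBM14 (edgeR adjusted p = 0.00065, 0.000425 and 0.000608). These 3 of 7 called members, all higher, stand beside 36.3% of all genes called in this comparison, 17.8% higher and 18.5% lower, and by library size alone the 4031 higher and 4198 lower calls became 6116 and 2275. The groups of 5 members did not overlap, beside 50.4% of all genes, and each of these 5 had p = 0.1 by the exact permutation test, the smallest that 3 against 3 libraries allows. NONO was among them in the other direction, at 747, 856 and 703 CPM with scramble and 659, 683 and 660 CPM with snaR-A. Its log2 fold change of -0.19 ± 0.07 was not called (edgeR adjusted p = 0.0661), and the call was made without HEK293T scramble replicate 3 (adjusted p = 0.0185) and by edgeR's exactTest and by DESeq2. TARDBP was at 0.09 ± 0.04 and NEAT1 at -0.06 ± 0.20, and neither was called.

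SFPQ, PSPC1 and RBM14 were also higher with eGFP than with scramble in HEK293T. This comparison and that of snaR-A share the scramble libraries and are not independent, and eGFP was not tested against snaR-A. With eGFP, SFPQ was at 684, 771 and 677 CPM, PSPC1 at 81.9, 86.9 and 81.8 CPM and RBM14 at 55.8, 58.0 and 56.2 CPM, all above every scramble library. The log2 fold changes over scramble were 0.90 ± 0.07 for SFPQ, 0.68 ± 0.05 for PSPC1 and 0.53 ± 0.04 for RBM14 (edgeR adjusted p = 0.000145, 0.000109 and 0.000108). In all, 5 of 7 members were called, each higher, beside 48.8% of all genes, 22.9% being higher, which is 5183 higher and 5845 lower (6747 and 4208 by library size alone). The groups of these 5 did not overlap, beside 59.3% of all genes. Besides SFPQ, PSPC1 and RBM14 these were TARDBP, at 0.16 ± 0.05 (edgeR adjusted p = 0.025), and MALAT1, at 2.92 ± 0.95 on 7 to 134 counts in 5 libraries and 0 in the sixth (edgeR adjusted p = 0.0357). Neither call held when certain single libraries were left out, and NONO, at -0.17, was called at -0.28 without eGFP replicate 2 (adjusted p = 0.0432). TARDBP lost it without eGFP replicate 2 or 3 or scramble replicate 1 or 2 (adjusted p = 0.0507 to 0.11), and MALAT1 without eGFP replicate 1 or 2 or scramble replicate 1 or 3 (adjusted p = 0.052 to 0.123). Without eGFP replicate 3, the library with A549 markers, SFPQ, PSPC1 and RBM14 stayed at 0.93, 0.70 and 0.54. NEAT1 was at 0.27 ± 0.32 over scramble with that library and at -0.10 ± 0.26 without it, and was called in neither fit.

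SF3B2 did not differ from its eGFP control for any member in HEK293T at the threshold. No member was called, beside 0.172% of all genes, the groups of RBM14 and TARDBP did not overlap, beside 29.5% of all genes, and 2 had an unadjusted p under 0.05, NONO and RBM14, while the exactTest called none and DESeq2 called RBM14. RBM14 was at 35.0, 41.6 and 50.8 CPM with SF3B2, below every eGFP library, a log2 fold change of -0.43 ± 0.13 (edgeR adjusted p = 0.149). Without SF3B2 replicate 3 it was at -0.56 and called (adjusted p = 0.0347). NONO was at 1350, 930 and 723 CPM with SF3B2 and 630, 782 and 640 CPM with eGFP, a log2 fold change of 0.54 ± 0.22 (edgeR adjusted p = 0.228), and the groups overlapped. The SF3B2 group had the largest coefficient of variation of the 4 HEK293T groups for each of the 5 proteins, and the library highest in NONO and lowest in RBM14, replicate 1, also had the most SF3B2, 3.86% of its counts against 3.19 and 2.78% in the other two. NEAT1, at -0.45 ± 0.38, had an approximate 95% interval of -1.20 to 0.30, and without the eGFP library that carried A549 markers it was at -0.08 ± 0.35.

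Set against scramble instead, the SF3B2 plasmid gave 3 called members, all higher, beside 34.3% of all genes, 16.8% higher. The groups of these 3 did not overlap, beside 50.3% of all genes. SFPQ was at 835, 657 and 592 CPM, above every scramble library, with a log2 fold change of 0.87 ± 0.13 (edgeR adjusted p = 0.00308). PSPC1, at 84.3, 73.1 and 68.8 CPM, was at 0.54 ± 0.08 (edgeR adjusted p = 0.00342), and TARDBP, at 323, 298 and 281 CPM against 243, 242 and 250 CPM, at 0.30 ± 0.07 (edgeR adjusted p = 0.0154). RBM14, at 35.0, 41.6 and 50.8 CPM, overlapped scramble and was not called, at 0.12 ± 0.12. The TARDBP call was lost without scramble replicate 1 or 2 or SF3B2 replicate 2 (adjusted p = 0.0512 to 0.0711). Without SF3B2 replicate 3, NONO at 0.58 and MALAT1 at 3.91 were also called (adjusted p = 0.0287 and 0.0443).

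**Figure D2:**
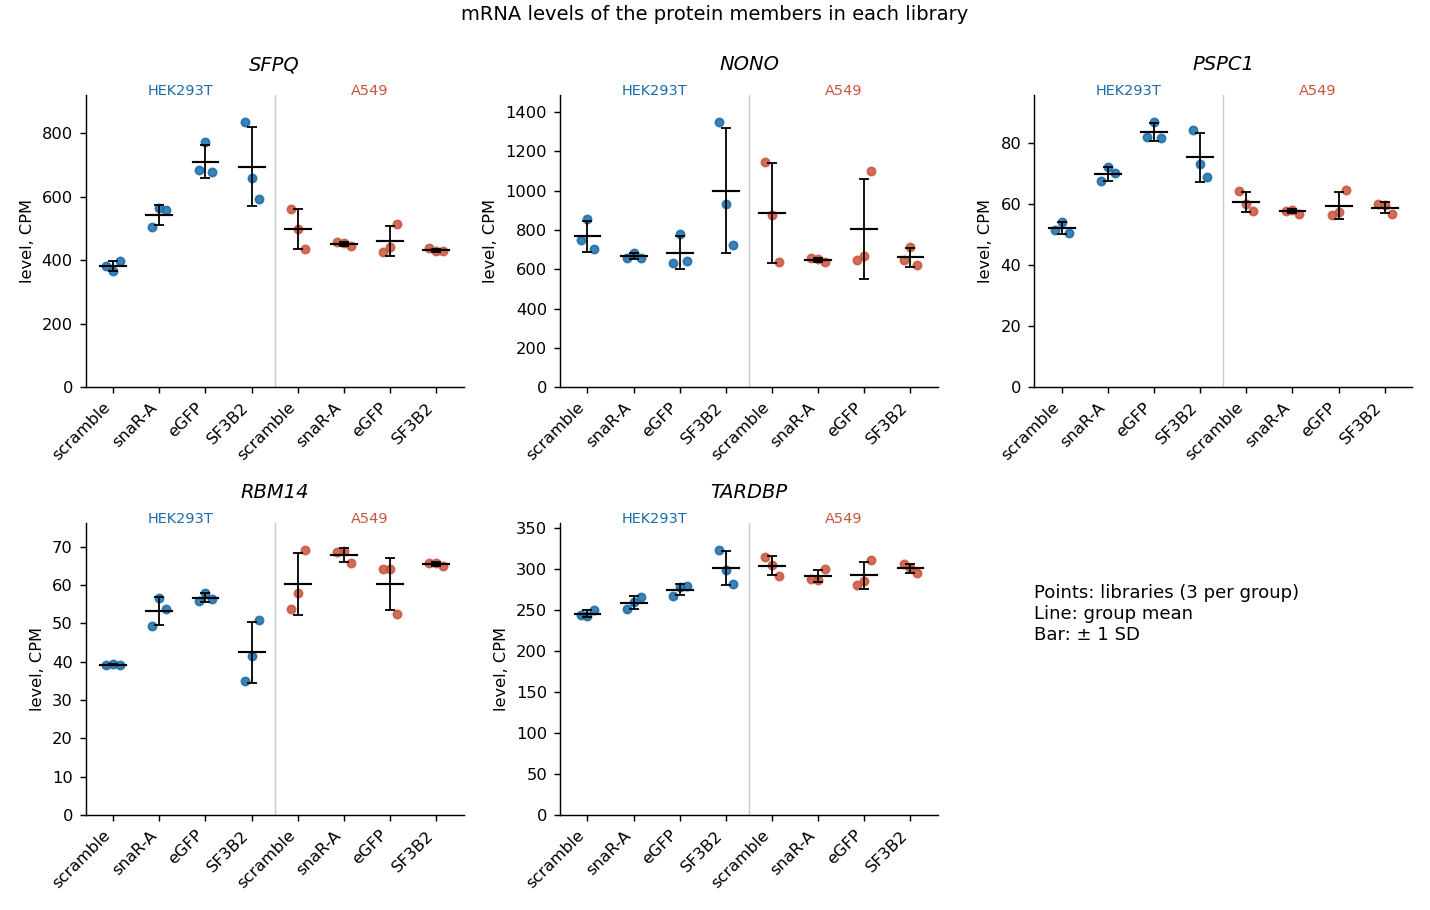
CPM (vertical axis, from 0) of the 5 protein mRNAs in each library, by plasmid, in HEK293T (blue) and A549 (red). Points are libraries, lines are means of 3 and bars are ± 1 SD. In HEK293T the scramble libraries are the lowest group for SFPQ, PSPC1 and TARDBP, while in A549 a few scramble and eGFP libraries stand high in NONO and low in RBM14.

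In A549 no member was called in any of the 4 plasmid comparisons, beside 0.0185% of all genes for snaR-A against scramble, 7.02% for SF3B2 against eGFP, 0.233% for SF3B2 against scramble and 1.49% for eGFP against scramble. In SF3B2 against eGFP the groups of RBM14 did not overlap, beside 30% of all genes, and every member overlapped in the other 3 comparisons, beside 11.9% (snaR-A), 18.5% (SF3B2) and 12.3% (eGFP) of all genes with groups apart over scramble. Of the 28 values, 1 had an unadjusted p under 0.05, NONO with snaR-A, and neither edgeR's exactTest nor DESeq2 called a member. SFPQ was at 562, 497 and 435 CPM with scramble, 456, 455 and 443 CPM with snaR-A, 425, 440 and 515 CPM with eGFP, and 437, 429 and 428 CPM with SF3B2. Its log2 fold change with snaR-A was -0.15 ± 0.09, and the groups overlapped. PSPC1 lay between 56.4 and 64.7 CPM over the 12 libraries and TARDBP between 280 and 315 CPM, so the range of each over all plasmids was 1.15-fold and 1.12-fold. NEAT1 was at -0.10 ± 0.15 with snaR-A, 0.02 ± 0.19 with eGFP over scramble and -0.06 ± 0.14 with SF3B2 over eGFP. Without eGFP replicate 3, TARDBP was called in SF3B2 against eGFP, at 0.11 ± 0.03 (adjusted p = 0.0408). The approximate 95% intervals of the 3 NEAT1 values reached no lower than -0.39 and no higher than 0.40.

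Without the library labelled A549 scramble replicate 3, which carried SF3B2, 3 members were called in SF3B2 against scramble. SFPQ was then at -0.30 ± 0.06, NONO at -0.62 ± 0.12 and RBM14 at 0.22 ± 0.04 (edgeR adjusted p = 0.0143, 0.0137 and 0.0111). The genes called in that comparison rose from 50 to 4825 at the same time. The 2 scramble libraries that remained, replicates 1 and 2, stood apart in NONO, RBM14 and mitochondrial share, as given below. For snaR-A against scramble without that library, NONO was at -0.65 ± 0.11 and RBM14 at 0.28 ± 0.04, with no call (edgeR adjusted p = 0.0648 and 0.064). For eGFP against scramble no member was called without it either. NEAT1 moved without it from -0.10 to 0.11 ± 0.05 for snaR-A, from 0.02 to 0.24 ± 0.16 for eGFP and from -0.04 to 0.16 ± 0.07 for SF3B2, each over scramble and none called (edgeR adjusted p = 0.245, 0.59 and 0.144).

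NONO and RBM14 varied in opposite directions among the A549 libraries, and the 3 libraries that stood apart were of scramble and eGFP. Scramble replicates 1 and 2 were among them, and scramble replicate 3, which was not, is the library that carried SF3B2. NONO was at 1146 and 877 CPM in scramble replicates 1 and 2 and at 1102 CPM in eGFP replicate 3, and between 623 and 714 CPM in the other 9 libraries. The same 3 libraries had the lowest RBM14, at 53.6, 58.0 and 52.3 CPM, against 64.2 to 69.2 CPM elsewhere, and the highest SFPQ, at 562, 497 and 515 CPM. They also had the highest share of counts in mitochondrial genes, 16.3, 14.4 and 12.3%, while the others lay between 8.86 and 12.2%. A549 snaR-A replicate 2, at 12.2%, was next to eGFP replicate 3 in this share but had NONO at 650 CPM and RBM14 at 68.9 CPM. In HEK293T the highest mitochondrial shares, 10.8 and 8.38%, were in SF3B2 replicates 1 and 2, with NONO at 1350 and 930 CPM and RBM14 at 35.0 and 41.6 CPM, but the scramble libraries had RBM14 at 39.0 to 39.4 CPM with shares of 4.22 to 7.02%. The part of the mitochondrial share, or of what it reflects, in the NONO and RBM14 values was not tested.

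**Figure D3:**
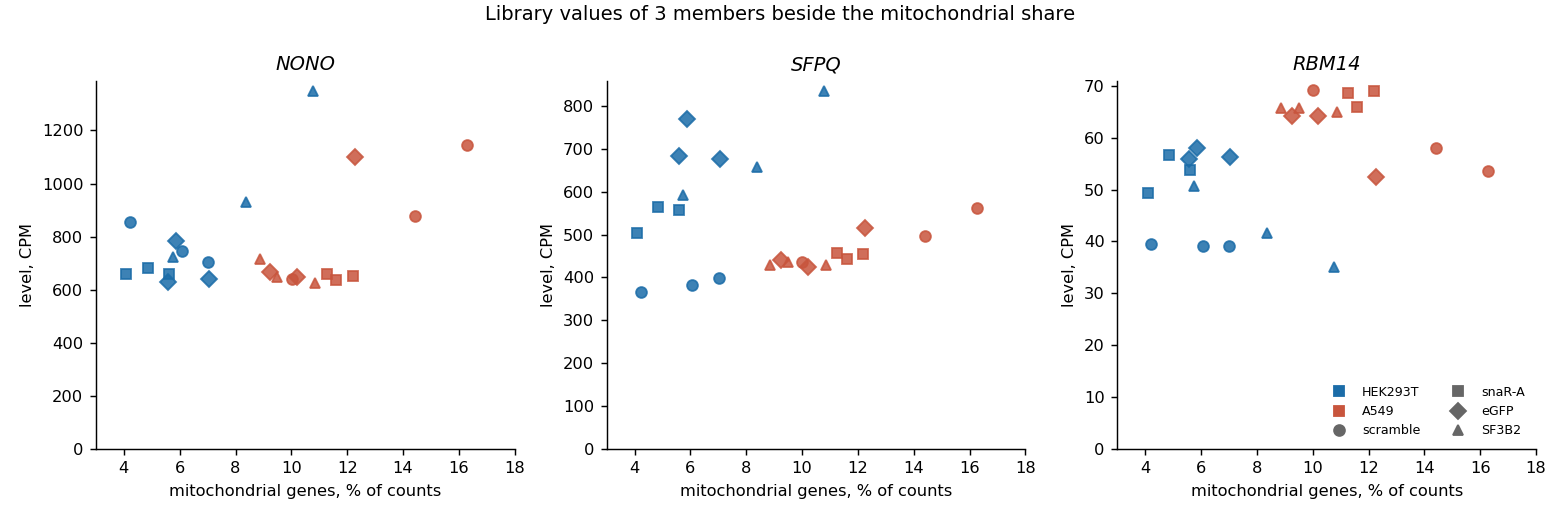
CPM of NONO, SFPQ and RBM14 (vertical axes, from 0) against the percentage of counts in mitochondrial genes (horizontal axis) in each of 24 libraries, coloured by cell line and marked by plasmid. The 3 A549 libraries with shares of 12.3 to 16.3% have NONO at 877 to 1146 CPM and RBM14 at 52.3 to 58.0 CPM.

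Whether the effects differed between the lines was tested directly as an interaction, given as the A549 log2 fold change minus that of HEK293T. For snaR-A against scramble it was called for 2 of 7 members, beside 11.4% of all genes and 6.64% that were lower, with -0.67 ± 0.11 for SFPQ and -0.52 ± 0.07 for PSPC1 (edgeR adjusted p = 0.0049 and 0.00148). RBM14, at -0.29 ± 0.11, was not called (edgeR adjusted p = 0.112), but was called without A549 scramble replicate 1 (adjusted p = 0.0498), as was NONO, at -0.43, without A549 scramble replicate 3 (adjusted p = 0.0472). For eGFP against scramble it was called for 3 members, beside 26.4% of all genes and 10.8% that were lower, with -0.95 ± 0.15 for SFPQ, -0.65 ± 0.09 for PSPC1 and -0.48 ± 0.13 for RBM14 (edgeR adjusted p = 0.00113, 0.000739 and 0.0222). All 5 values were negative, the HEK293T change being the larger. Without A549 scramble replicate 3 the SFPQ and PSPC1 values stayed called in both, while RBM14 in the eGFP comparison lost its call without HEK293T scramble replicate 1 (adjusted p = 0.0524) and kept it without HEK293T eGFP replicate 3, at -0.46 (adjusted p = 0.0354). TARDBP gained a call there without A549 eGFP replicate 3 or scramble replicate 3 (adjusted p = 0.0215 and 0.0435). For SF3B2 against eGFP no member was called, beside 6.1% of all genes, although RBM14 (0.54 ± 0.16) and NONO (-0.83 ± 0.34) had unadjusted p under 0.05 and DESeq2 called 2 members. Without HEK293T SF3B2 replicate 3, RBM14 was called, at 0.68 ± 0.13 (adjusted p = 0.00761). NEAT1 had interaction values of -0.05 ± 0.29 for snaR-A, -0.19 ± 0.44 for eGFP and 0.36 ± 0.46 for SF3B2, with no call, and without HEK293T eGFP replicate 3 the eGFP value was 0.20 ± 0.37 and the SF3B2 value -0.01 ± 0.41.

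**Figure D4:**
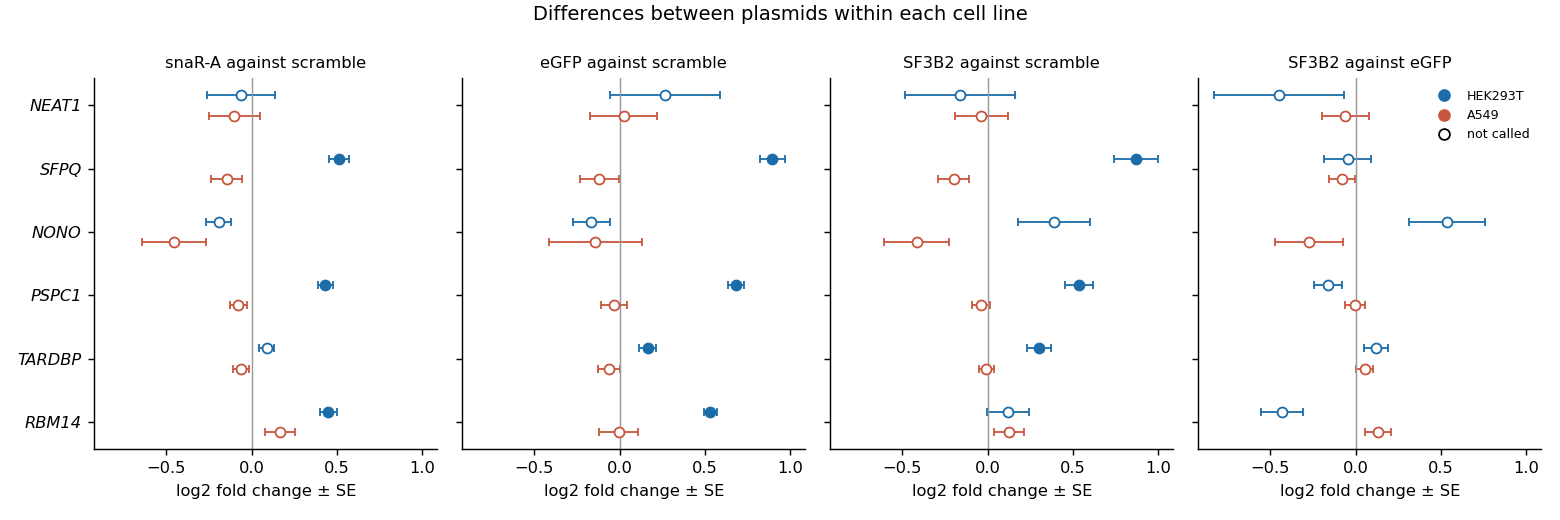
Log2 fold change ± SE (horizontal axes) of 6 members in the 4 plasmid comparisons, in HEK293T (blue) and A549 (red). Filled points passed an adjusted p under 0.05. MALAT1 is left out because of its low counts. All filled points are in HEK293T and to the right of 0, and none is in SF3B2 against eGFP.

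The promoters of PSPC1 and RBM14 are shown because these genes rose together with snaR-A and with eGFP in HEK293T. Each runs from 250 bases before to 50 bases after the RefSeq transcript start on GRCh38.p14. Capitals mark the matches to 6 short motifs, searched on both strands: the TATA box TATAAA, the CCAAT box, the GC box GGGCGG, the ETS core CCGGAA, the CRE core TGACG and the YY1 core ATGGCGG. PSPC1 (ENSG00000121390) starts on the minus strand and its window is chr13:19782896-19783195. It holds CCGGAA, the core bound by ETS factors, 1 time, as TTCCGG on this strand, as do 17.2% of 35116 promoters. RBM14 (ENSG00000239306) lies on the plus strand, about a megabase beyond MALAT1, with the window chr11:66616380-66616679.
PSPC1 promoter: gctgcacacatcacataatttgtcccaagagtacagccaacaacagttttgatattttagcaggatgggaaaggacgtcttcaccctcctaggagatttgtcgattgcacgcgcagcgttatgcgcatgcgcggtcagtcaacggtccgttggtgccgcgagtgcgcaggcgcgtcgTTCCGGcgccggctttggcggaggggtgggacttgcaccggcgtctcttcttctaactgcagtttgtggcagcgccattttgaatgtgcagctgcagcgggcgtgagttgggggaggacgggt
RBM14 promoter: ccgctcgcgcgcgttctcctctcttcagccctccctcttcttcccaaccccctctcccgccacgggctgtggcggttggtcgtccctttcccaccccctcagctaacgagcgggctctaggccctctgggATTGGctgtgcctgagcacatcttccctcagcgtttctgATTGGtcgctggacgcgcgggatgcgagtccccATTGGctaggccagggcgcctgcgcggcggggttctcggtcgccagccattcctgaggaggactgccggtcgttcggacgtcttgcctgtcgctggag
The RBM14 window holds CCAAT, the box bound by NF-Y, 3 times, each as ATTGG on this strand, and 34.6% of all promoters hold it at least 1 time. The 2 windows shared none of the 6 motifs, and NONO, which was not called, also holds CCAAT 3 times and CCGGAA 1 time.

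Reads of close relatives can be counted under each other's ID for some members. The share of 31-base words found in another gene was 11.5% for NONO, 8.38% for TARDBP, 8.29% for PSPC1, 6.15% for RBM14 and 2.39% for SFPQ. For PSPC1 nearly all of it was its pseudogene PSPC1P1, which held at most 5 counts in any library. For RBM14 it was the readthrough gene RBM14-RBM4, at 2.17 to 5.37 CPM.

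Other proteins found in paraspeckles moved in both directions in HEK293T. Of 27 tested, 8 rose and 2 fell with snaR-A over scramble, with a median of 0.01 on the log2 scale beside -0.01 for all genes. These 10 calls of 27 are close in share to the 36.3% of all genes called. HNRNPM, a splicing regulator, rose by 0.42 ± 0.06 (edgeR adjusted p = 0.00147), from 275 ± 11.8 to 365 ± 24.6 CPM (SD, n = 3). HNRNPA1, a splicing repressor, fell by 0.30 ± 0.07 (edgeR adjusted p = 0.00943). The other that fell was HNRNPR, at 1.29 and 0.870 CPM under an ID that may hold few of its reads. With eGFP over scramble 11 rose and 5 fell, beside 48.8% of all genes called, and with SF3B2 over scramble 10 rose and 1 fell, beside 34.3%, among them HNRNPM, at 0.88 ± 0.12 (edgeR adjusted p = 0.0025). None was called with SF3B2 over eGFP in HEK293T, and in A549 the only calls were RBM7, a subunit of the nuclear exosome targeting complex, at -0.31, and HNRNPH1, at -0.18, with SF3B2 over eGFP (edgeR adjusted p = 0.0215 and 0.0436). Without A549 scramble replicate 3, 13 of the 27 fell with SF3B2 over scramble in A549, beside 21.9% of all genes called, with a median of -0.14. The controls left in that fit, scramble replicates 1 and 2, stood apart in NONO, RBM14 and mitochondrial share. Their part in the 13 calls was not tested.

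Proteins of nuclear speckles, the bodies that MALAT1 marks, were mostly higher among their calls in HEK293T. Of 18 tested, 7 rose and 2 fell with snaR-A, 10 rose and 1 fell with eGFP, and 7 rose and 1 fell with SF3B2, each over scramble, with medians of 0.07, 0.26 and 0.29. Of all genes, 17.8%, 22.9% and 16.8% were called higher in these comparisons. The serine/arginine-rich splicing factors SRSF6, SRSF1 and SRSF2 led with snaR-A, at 0.44 ± 0.07, 0.39 ± 0.07 and 0.31 ± 0.05 (edgeR adjusted p = 0.00174, 0.00418 and 0.00243). SON, a scaffold of the speckle, led with SF3B2 over scramble, at 0.80 ± 0.15 (edgeR adjusted p = 0.00633). With SF3B2 over eGFP in HEK293T no speckle protein was called, beside 0.172% of all genes. None of the 18 was called in the 4 A549 comparisons, but without A549 scramble replicate 3, 10 fell and 1 rose with SF3B2 over scramble, beside 21.9% of all genes called. That fit rests on scramble replicates 1 and 2, which stood apart in NONO, RBM14 and mitochondrial share.

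Genes around NEAT1 and MALAT1 on chromosome 11 had calls in both directions between the plasmids in HEK293T. Of 12 neighbours, 11 were tested in HEK293T, where 5 rose and 1 fell with snaR-A over scramble, 4 rose and 1 fell with eGFP, and 1 fell with SF3B2, beside 36.3%, 48.8% and 34.3% of all genes called. With SF3B2 over eGFP in HEK293T none of the 11 was called, beside 0.172% of all genes. With snaR-A over scramble in HEK293T, TIGD3 rose by 0.70 ± 0.13 and CDC42EP2 by 0.60 ± 0.16, while EHBP1L1 fell by 0.60 ± 0.08 (edgeR adjusted p = 0.00479, 0.0214 and 0.00103). None of the 12 was called between plasmids in A549. Without A549 scramble replicate 3, 4 rose and 1 fell with SF3B2 over scramble in A549, beside 21.9% of all genes called. Its controls were scramble replicates 1 and 2, which stood apart in NONO, RBM14 and mitochondrial share. Between the lines 7 were higher in A549 and 3 lower, beside 42.8% and 43% of all genes. Their median was 1.06 beside -0.01 for all genes, and EHBP1L1 was higher by 2.91 ± 0.05, beside 4.04 for NEAT1.

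Responses known to induce NEAT1 moved in these libraries without a call for NEAT1. In A549 all 18 interferon response genes rose with eGFP over scramble, with a median log2 fold change of 3.21 beside -0.01 for all genes and 1.49% of all genes called, and OAS2, which senses double-stranded RNA, rose from 10.1 ± 1.103 to 162 ± 24.3 CPM (SD, n = 3), a log2 fold change of 3.997 ± 0.14 (edgeR adjusted p = 6.35e-05). NEAT1 was at 0.02 ± 0.19 in the same comparison and at 0.24 ± 0.16 without the library labelled A549 scramble replicate 3 (edgeR adjusted p = 0.59), where the 18 genes still rose, with a median of 3.19. All 18 genes fell with SF3B2 over eGFP, beside 7.02% of all genes called, with a median of -2.14, where NEAT1 was at -0.06 ± 0.14. With SF3B2 over scramble in A549, 9 of the 18 rose, beside 0.233% of all genes called, with a median of 1.08. Without scramble replicate 3, 13 rose, beside 21.9%, with a median of 0.93. In HEK293T with eGFP over scramble, 4 of 17 rose and 1 fell, beside 48.8%, with a median of 1.22. Without eGFP replicate 3, 2 rose and 3 fell, beside 46.5%, with a median of -0.07. In HEK293T, 9 of 12 p53 targets rose with snaR-A over scramble, 10 with eGFP and 11 with SF3B2, beside 17.8%, 22.9% and 16.8% of all genes called higher. MDM2, the ubiquitin ligase that restrains p53, rose by 0.39 ± 0.04 with snaR-A (edgeR adjusted p = 0.00057). In HEK293T 9 of 10 hypoxia response genes fell and 1 rose with snaR-A, 8 fell and 1 rose with eGFP and 8 fell with SF3B2, with medians of -0.50, -0.92 and -0.75, beside 36.3%, 48.8% and 34.3% of all genes called in either direction. NDRG1 fell from 229 ± 20.7 CPM with scramble to 105 ± 15.6 CPM with snaR-A (SD, n = 3), by 1.11 on the log2 scale (edgeR adjusted p = 0.0004). Of 9 heat shock genes tested in HEK293T, 3 rose and 1 fell with snaR-A over scramble, beside 36.3% of all genes called. With eGFP over scramble 5 rose and 1 fell, beside 48.8%, and with SF3B2 over scramble 6 rose and 1 fell, beside 34.3%. The medians were 0.04, 0.49 and 0.54. All of these comparisons over scramble in HEK293T share the scramble libraries. With SF3B2 over eGFP in HEK293T, no p53 target (12 tested), hypoxia gene (9 tested) or heat shock gene (9 tested) was called, beside 0.172% of all genes. In A549, 4 heat shock genes, 5 of 12 p53 targets and 1 of 10 hypoxia genes rose with SF3B2 over eGFP. None of these lists had a lower call there, beside 7.02% of all genes called. HSPH1, a chaperone, rose by 0.33 ± 0.05 with snaR-A in HEK293T (edgeR adjusted p = 0.00201). With SF3B2 over scramble in A549, 1 heat shock gene and 1 p53 target were called, both higher, beside 0.233% of all genes. Without A549 scramble replicate 3, 5 heat shock genes rose and 1 fell there, beside 21.9% of all genes called. In the same fit 7 p53 targets and 1 hypoxia gene rose. Its controls, scramble replicates 1 and 2, stood apart in NONO, RBM14 and mitochondrial share, and their part in these calls was not tested. NEAT1 was not called in any of these comparisons, and its standard errors over scramble in HEK293T, 0.20 to 0.32, were close in size to the HSPH1 change.

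**Figure D5:**
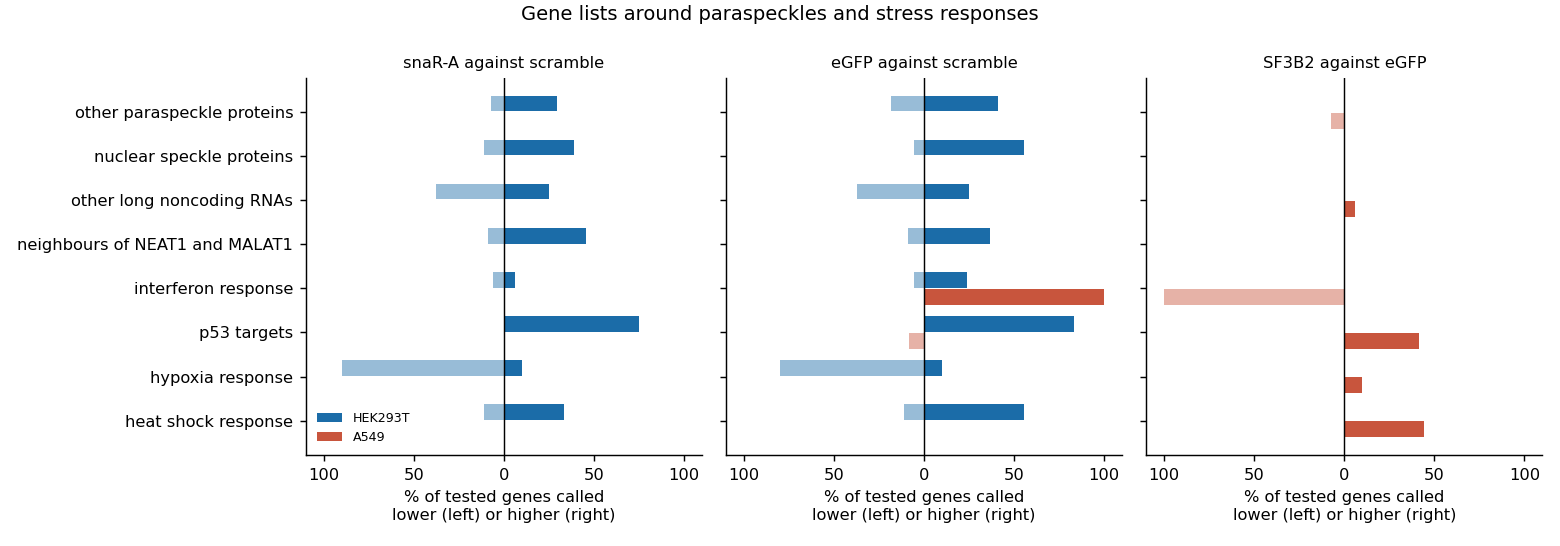
Percentage of tested genes of 8 lists called higher (bars to the right, full colour) or lower (bars to the left, pale) at an adjusted p under 0.05, in 3 comparisons, in HEK293T (blue) and A549 (red). A list with no bar had no call. The interferon list in A549 reaches 100% higher with eGFP over scramble, and the hypoxia list in HEK293T reaches 90% lower with snaR-A over scramble.

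Among other long noncoding RNAs, 4 of 16 tested rose and 6 fell with snaR-A over scramble in HEK293T, as did 4 and 6 with eGFP and 3 and 6 with SF3B2, beside 36.3%, 48.8% and 34.3% of all genes called. With SF3B2 over eGFP in HEK293T none of the 16 was called, beside 0.172% of all genes. In A549 1 of 17 was called with SF3B2 over eGFP, beside 7.02% of all genes, and none over scramble. Without scramble replicate 3, 5 fell with SF3B2 over scramble in A549, beside 21.9% of all genes called. The controls there were scramble replicates 1 and 2, which stood apart in NONO, RBM14 and mitochondrial share. With snaR-A over scramble in HEK293T, PVT1, the host transcript beside MYC, rose by 1.22 ± 0.09 (edgeR adjusted p = 0.000225), from 6.25 ± 0.51 to 14.5 ± 1.46 CPM (SD, n = 3). In the same comparison SNHG1, a host of small nucleolar RNAs, fell by 0.51 ± 0.09 (edgeR adjusted p = 0.00367). NEAT1 and MALAT1 had no call with snaR-A.

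The genes nearest in profile to each member were found by the root mean square (RMS) difference of log2(CPM + 1), centred within each line, over the 24 libraries, as a description. For SFPQ they were CNOT4, BRPF3 and BCLAF1, with RMS differences of 0.0619 to 0.0702 beside a median of 0.318 over 12918 genes. For PSPC1 they were ZNF622, TBCE and LANCL2, at 0.0417 to 0.057, and for RBM14 they were LRR1, DDX56 and LMAN2L, at 0.0555 to 0.0581. For NONO they were MCM4, a subunit of the replicative helicase, UBE2L3 and SRSF4, at 0.0853 to 0.0897. TARDBP was nearest to CUL1, HSPA4 and PHF12, at 0.0309 to 0.0396. The NEAT1 profile had no close neighbour by this measure, since MIR31HG, DLGAP1-AS2 and CPNE7 lay at 0.242 to 0.254, not far below the RMS of NEAT1's own profile, 0.328. No other member was among the 3 nearest of any member, and MALAT1 was below the level needed, a mean of 1 log2 CPM.

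Over the 8 groups the order of mean levels differed by member. NEAT1 was highest in A549 eGFP, at 406 ± 83.7 CPM (SD, n = 3), and lowest in HEK293T SF3B2, at 20.9 ± 7.98 CPM, and only the step between the lines separated neighbours in the order without overlap. SFPQ ran from 710 ± 52.4 CPM (SD, n = 3) in HEK293T eGFP to 382 ± 16.1 CPM in HEK293T scramble, with the 4 A549 groups and HEK293T SF3B2 and snaR-A between. PSPC1 had the same highest and lowest groups, at 83.6 ± 2.93 and 52.1 ± 1.996 CPM, and its 4 A549 groups, at 57.7 to 60.7 CPM, overlapped one another. TARDBP was lowest in HEK293T scramble, at 245 ± 4.08 CPM, and its 4 A549 groups, together with HEK293T SF3B2, overlapped in order at the top. RBM14 was highest in A549 snaR-A, at 67.8 ± 1.73 CPM, which lay just above every A549 SF3B2 library, and lowest in HEK293T scramble, at 39.2 ± 0.19 CPM. For NONO and MALAT1 every neighbouring pair of groups overlapped.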

How the data were processed

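RNA-seq was analysed from 24 libraries of human cell lines. The authors trimmed reads with Trim Galore, quantified them with Salmon and deposited 1 table, in which each Ensembl gene has 1 estimated count per library, on hg38 per the labels; the transcriptome release and the step from transcripts to genes are not given in the sources used here. Of the values, 51% were not whole, and they were rounded. Rounding set 0.034% of the values to 0. The IDs with no symbol were tested under their IDs. Differences were tested on the counts of the libraries compared, after filterByExpr and TMM scaling, with edgeR 4.0.16 (R 4.3.3), quasi-likelihood F-test, Benjamini-Hochberg adjustment over all genes tested, and called at an adjusted p under 0.05. The interaction and the line difference used 12 and 24 libraries. Standard errors were derived from the F statistic, and approximate 95% intervals are 1.96 SE to each side. Levels of single members were also tested by exact permutation (two-sided) in Python 3.11.15 with scipy 1.17.1, and figures were drawn with matplotlib 3.10.9.

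The alternatives were edgeR's exactTest, DESeq2 1.42.0, RLE scaling, library size alone, no filter, all libraries in 1 fit, the replicate number as a block, and leaving out each library. Residuals of libraries with the same number had a median correlation across genes of -0.0121 in HEK293T (18 pairs) and -0.0104 in A549 (18 pairs), so the numbers were not taken as pairs. The steps were tested on simulated counts: for HEK293T snaR-A against scramble (22667 genes), 97.0% of genes changed 4-fold and 46.3% of those changed 1.5-fold were recovered. For the snaR-A interaction (24784 genes) these shares were 80.3% and 28.4%. Each simulation changed 200 genes, far fewer than the 8229 called for snaR-A in HEK293T. Recovery with so many genes changed was not tested. The members and gene lists were chosen with earlier results of these data known. Genes named are the members, at most 3 called genes with the largest change per list and comparison, the 3 nearest profiles, and genes that overlap a member; the low level of HNRNPR and ENSG00000288299 were named after their values were seen. Sequences came from hg38 with GENCODE 44, and promoters from RefSeq (GRCh38.p14), with an entry for 5 of 7 members. The approximate 95% intervals include the spread between libraries, while the floor of 3 counts covers counting error only. Gene lists were also counted without A549 scramble replicate 3 or HEK293T eGFP replicate 3, an alternative chosen after seeing the data.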

Additional observations from a re-analysis of the deposited data

Results flagged for a closer look

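Members whose plasmid effect differed between the cell lines, by the interaction term, are listed for a closer look. For snaR-A against scramble, SFPQ differed by -0.67 ± 0.11 on the log2 scale (A549 minus HEK293T) and PSPC1 by -0.52 ± 0.07. For eGFP against scramble, SFPQ differed by -0.95 ± 0.15, PSPC1 by -0.65 ± 0.09 and RBM14 by -0.48 ± 0.13. The tests share the 6 scramble libraries, of which the library labelled A549 scramble replicate 3 carried SF3B2 at 8773 CPM. Over all 12 libraries left out in turn, the SFPQ value ran from -0.73 to -0.55 for snaR-A and from -1.09 to -0.89 for eGFP.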

How the results depend on the processing

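Counts of called members stayed within 1.5 times the reported count in 76 of 80 fits with another test, scaling, filter or design. The exceptions were SF3B2 against eGFP in HEK293T, 0 members as reported, 1 with DESeq2 and 1 with all libraries in 1 fit (RBM14, -0.42 each, adjusted p = 0.024 and 0.0333), and the SF3B2 interaction, 0 as reported, 2 with DESeq2 and 1 with all libraries in 1 fit. By library size alone, signs turned for NEAT1 with snaR-A in HEK293T (0.032), RBM14 with eGFP over scramble in A549 (0.0252), and TARDBP (-0.32) and RBM14 (-0.0449) between the lines. In these comparisons library size alone also moved the median of all genes. The shift was 0.0992 for snaR-A in HEK293T, 0.0343 for eGFP over scramble in A549 and -0.46 between the lines. The cause of this shift was not tested.

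With each library left out, called members ran from 3 to 4 for snaR-A, 0 to 1 for SF3B2 against eGFP, 2 to 5 for SF3B2 and 3 to 4 for eGFP over scramble in HEK293T, from 0 to 1 for SF3B2 against eGFP and 0 to 3 for SF3B2 against scramble in A549, and from 0 to 1 in the SF3B2 interaction. NEAT1 ran from -0.28 to 0.14 for snaR-A, -0.38 to 0.13 for SF3B2 and -0.10 to 0.51 for eGFP over scramble in HEK293T, and in A549 from -0.22 to 0.11 for snaR-A, -0.15 to 0.16 for SF3B2 and -0.15 to 0.24 for eGFP over scramble and -0.17 to 0.12 for SF3B2 against eGFP. RBM14 ran from -0.0259 to 0.25 for SF3B2 over scramble in HEK293T and -0.0753 to 0.10 for eGFP over scramble in A549. NONO ran from -0.41 to 0.0252 for SF3B2 against eGFP and -0.44 to 0.10 for eGFP over scramble in A549.

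Over all genes, calls with another setting ran from 1 to 2079 for SF3B2 against eGFP in HEK293T (39 as reported), and in A549 from 0 to 38 for snaR-A (4), 654 to 2863 for SF3B2 against eGFP (1516), 0 to 377 for SF3B2 (50) and 168 to 532 for eGFP (322) over scramble. They ran from 2228 to 4406 for the snaR-A interaction (2831) and 418 to 4006 for the SF3B2 interaction (1507). With the replicate number as a block, over scramble in HEK293T the snaR-A comparison had 3 called members and those of eGFP and SF3B2 had 4, and TARDBP lost its eGFP call (0.16, adjusted p = 0.074), and the number of called members in the other comparisons was as reported. The numbers were not taken as pairs, although residual correlations of single pairs ran from -0.34 to 0.25 in A549 and from -0.0793 to 0.108 in HEK293T. MALAT1 rests on 0 to 239 counts in HEK293T, the fewest of the 7 members, so counting error weighs most on it.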
